A study of Drosophila melanogaster with 3 samples.

Results

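The 33 genes described here encode aminoacyl tRNA synthetases of Drosophila melanogaster, and the data show where the Notch-activated repressor E(spl)mβ was found near them. They were chosen by a rule on the symbol, which was set with earlier results of these data known. The rule takes protein-coding genes on the chromosome arms whose symbol is a three-letter amino acid code followed by RS. The ending -m may follow, and GluProRS is included. The members are 33 of 13945 protein-coding genes. By symbol, 15 ending in -m were counted as mitochondrial forms and the other 18 as cytoplasmic forms. No member ending in -m stands for glycine, histidine, lysine, threonine or glutamine. The symbols do not tell whether the genes for these amino acids also serve the mitochondria. Chromatin immunoprecipitation with sequencing was done on unsorted, mixed-sex embryos collected at 0 to 24 h from a transgenic line that stably expresses the protein E(spl)mβ with green fluorescent protein at its C terminus, with an antibody against the tag. The study has 1 group of 3 biological replicates, each from its own biosample, which leaves no comparison between stages, genotypes or treatments. The embryos were not separated by tissue, and neither the extent nor the copy number of the transgene is stated in the labels.

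Aminoacyl tRNA synthetases join each amino acid to its tRNA and so supply the ribosome with charged tRNAs. Most animal cells have one set of these enzymes for the cytoplasm and another, also encoded in the nucleus, for the mitochondria. The enzymes fall into class I and class II, which differ in the fold of their catalytic domain, and several cytoplasmic ones are held together in a multisynthetase complex. E(spl)mβ belongs to the Hairy/E(spl) proteins, DNA-binding repressors with a basic helix-loop-helix domain. In what follows a gene is called bound when a summit of the reproducible peak list lay within 1000 bp of any of its transcription start sites (TSSs). That list, which the authors filtered by irreproducible discovery rate (IDR), holds 8549 peaks. Signal is the authors' value per peak, taken here as a measure of enrichment, and ranks peaks within one list only. Position is the distance of a summit from the nearest TSS of the gene, negative upstream. The read depth is unknown.

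The 4 stretches printed here come from the reference genome (dm6) and compare 2 amino acids, isoleucine and leucine, for which one form was bound and the other was not. Those of IleRS and LeuRS-m surround the strongest IDR summit of each form, with the summit base in capitals. The LeuRS-m stretch lies in an intron of the neighbouring Dhc64C and is not the promoter of LeuRS-m. Those of their counterparts IleRS-m and LeuRS, which were not bound, lie directly upstream of the TSS. Each is printed 5′ to 3′ on the strand of the synthetase gene and holds no annotated exon.
IleRS, chr3L:22288378-22288578, plus strand: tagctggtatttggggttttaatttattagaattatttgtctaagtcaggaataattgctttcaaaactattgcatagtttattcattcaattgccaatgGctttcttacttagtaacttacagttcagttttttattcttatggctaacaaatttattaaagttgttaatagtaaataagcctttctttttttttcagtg
IleRS-m, chr3L:16100089-16100279, plus strand: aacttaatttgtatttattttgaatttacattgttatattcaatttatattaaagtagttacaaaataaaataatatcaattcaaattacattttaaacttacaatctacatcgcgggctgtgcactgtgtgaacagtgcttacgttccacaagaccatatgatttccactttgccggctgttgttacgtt
LeuRS-m, chr3L:4824828-4825028, plus strand: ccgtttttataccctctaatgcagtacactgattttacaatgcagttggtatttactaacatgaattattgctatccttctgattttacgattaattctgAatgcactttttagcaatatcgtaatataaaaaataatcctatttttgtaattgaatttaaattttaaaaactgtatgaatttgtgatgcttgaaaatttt
LeuRS, chr2L:3514657-3514856, minus strand: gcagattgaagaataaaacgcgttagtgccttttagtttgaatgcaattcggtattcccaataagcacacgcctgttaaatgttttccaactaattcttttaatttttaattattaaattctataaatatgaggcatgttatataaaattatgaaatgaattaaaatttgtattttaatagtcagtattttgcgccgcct

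The 4 stretches printed here had similar shares of A and T, but they do not stand for the bound and unbound members at large. A and T made up 73.6% of the IleRS window and 74.6% of the LeuRS-m window, against 70.7% upstream of IleRS-m and 72.0% upstream of LeuRS. None of the 4 held any of the 8 motifs described further on, among them CACGTG, an E-box recognised by repressors of the E(spl) group. The windows were cut differently, around a summit or upstream of a TSS, so like sequence is not compared. Over all 18 unbound members the promoter window, described further on, had a median of 64.1% A and T (51.8 to 73.8%). That median is below both unbound stretches printed here. LeuRS has CACGCG starting 205 bp upstream of its TSS, at the edge of its stretch, and IleRS has CAGCTG 79 bp upstream, outside its own.

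Of the 33 synthetase genes, 15 (45.5%, exact 95% interval 28.1 to 63.6%) were bound in the IDR list, where 32.1% of all protein-coding genes were. The genes counted as cytoplasmic account for most of them, among them GlyRS, HisRS and ThrRS, which have no counterpart ending in -m. Of the 18 cytoplasmic genes, 11 were bound (61.1%, 35.7 to 82.7%), and of the 15 mitochondrial genes, 4 (26.7%, 7.79 to 55.1%), a difference of 34.4 percentage points. The intervals cover the counting of genes only, and genes are not replicates, so no test was made on this difference. It was not recomputed without GlyRS, HisRS, LysRS and ThrRS, which lack such a counterpart. In this list the cytoplasmic share lies above the share of all genes. The mitochondrial share lies below it, with an interval that covers it.

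The direction of that difference was the same in each replicate. Within 1000 bp of a TSS, replicate 1 had a summit at 13 cytoplasmic (72.2%) and 5 mitochondrial genes (33.3%), against 49.6% of all genes. Replicate 2 had 14 (77.8%) and 5 (33.3%), against 51.9%, and replicate 3 had 11 (61.1%) and 7 (46.7%), against 50.2%. The difference was thus 38.9, 44.4 and 14.4 percentage points, with a mean of 32.6 ± 16.0 (SD, n = 3), and it was smallest in replicate 3. Over lists cut to the 8549 strongest peaks of each replicate it was 41.1, 46.7 and 27.8 points, with a mean of 38.5 ± 9.7 (SD, n = 3). In those lists 32.6%, 33.3% and 33.0% of all genes had a summit, in replicates 1, 2 and 3. In the peaks of the pooled alignments, 12 cytoplasmic and 4 mitochondrial genes had a summit. That is 16 of 33 members (48.5%), against 47.2% of all genes, so in the pooled list the family as a whole was near the share of all genes. The forms were not, with the cytoplasmic share, 66.7%, above that of all genes and the mitochondrial share, 26.7%, below it.

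**Figure D1:**
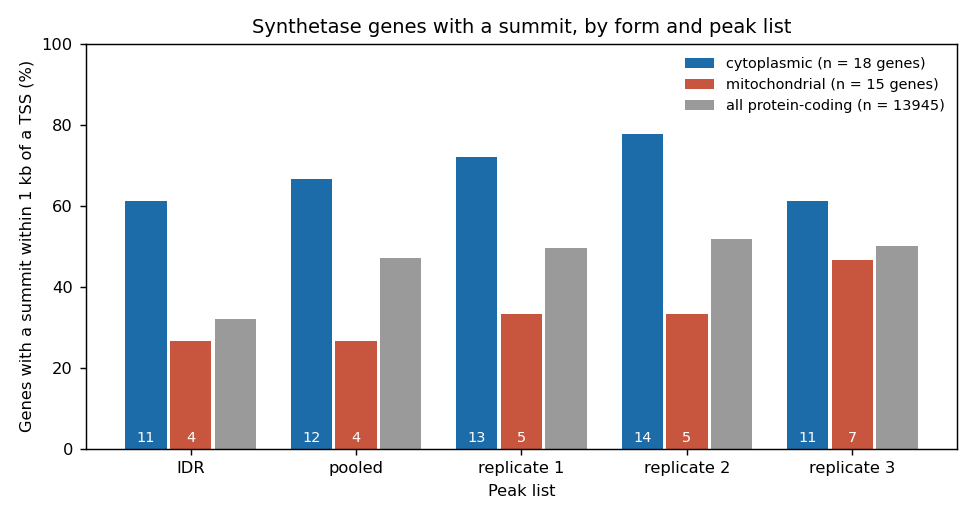
Share of genes with a summit within 1 kb of a TSS (percent, y axis) in each peak list (x axis), for cytoplasmic forms (blue, 18 genes), mitochondrial forms (red, 15 genes) and all protein-coding genes (grey, 13945), with the number of genes written in the bars. The blue bars are above the grey ones in all 5 lists, and the red bars are below them, by least in replicate 3.

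The cytoplasmic genes with the highest signals were those for isoleucine, glutamate with proline, and serine. IleRS (FBgn0027086, 3L 22288665 to 22292810, plus strand) had an IDR signal of 2575.7, rank 361, and signals of 1086.7, 533.6 and 949.3 in replicates 1, 2 and 3, at ranks 387, 429 and 311. GluProRS, whose single protein carries both activities, had an IDR signal of 2014.0 and replicate signals of 729.9, 458.1 and 817.4, at ranks 832, 576 and 423. SerRS had an IDR signal of 1973.8 and replicate signals of 701.9, 498.4 and 777.9, at ranks 889, 494 and 469. All 3 genes ranked in the top 1000 of every replicate list.

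A middle group of cytoplasmic genes had IDR signals around 1000. ThrRS had 1294.9 (ranks 1659, 1542 and 872 in the replicates), AspRS had 1218.3 (ranks 2239, 1324 and 873) and ValRS had 1129.0 (ranks 2041, 1468 and 1259). Each ranked highest in replicate 3 and lowest in replicate 1. MetRS (839.7) and AsnRS (828.1) followed, with ranks of 3341, 2113 and 1834 and of 3245, 2151 and 2085. The lowest cytoplasmic signals were those of AlaRS (634.3), GlyRS (560.6) and HisRS (450.1). Over the 11 bound cytoplasmic genes the median IDR signal was 1129.0, where it was 713.1 over all bound genes. Every one of the 11 had a summit among the 8549 strongest peaks of each of the 3 replicates, from which the IDR list itself was derived.

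The mitochondrial forms held both the strongest and the weakest signal of the family. LeuRS-m (FBgn0027085, 3L 4825853 to 4829038, plus strand) had an IDR signal of 2854.2, rank 288, and replicate signals of 1337.1, 562.2 and 948.7, at ranks 250, 388 and 312. Its summit, however, lay 925 bp upstream of its TSS, in an intron of the neighbouring Dhc64C, which encodes a heavy chain of cytoplasmic dynein and whose own TSS was nearer, at 759 bp. CysRS-m had 711.3, with replicate signals of 274.9, 152.7 and 271.5. ArgRS-m had 403.1 and replicate signals of 175.4, 61.8 and 190.2, and SerRS-m had 329.3 and replicate signals of 116.5, 97.0 and 89.6. The last 2 are weak in at least 1 replicate each. ArgRS-m ranked 10403 in replicate 2, and SerRS-m ranked 10988 and 8598 in replicates 1 and 3, all beyond the 8549 strongest. The median over the 4 bound mitochondrial genes was 557.2. When an IDR peak had to stand among the 8549 strongest of both other replicates, leaving out replicate 1 or replicate 3 gave 2 bound mitochondrial genes in place of 4, without ArgRS-m and SerRS-m, and leaving out replicate 2 gave 3, without SerRS-m. Of all genes, 26.9%, 26.0% and 26.9% were bound without replicates 1, 2 and 3, against 32.1% in the full IDR list. The mitochondrial median was then 1782.8 without replicate 1 or 3, above the cytoplasmic median of 1129.0, and 711.3 without replicate 2, below it. The value of 1782.8 is the median of CysRS-m (711.3) and LeuRS-m (2854.2) only. The order of the medians thus rests on the weak genes and on LeuRS-m, whose summit lies 925 bp from its TSS.

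**Figure D2:**
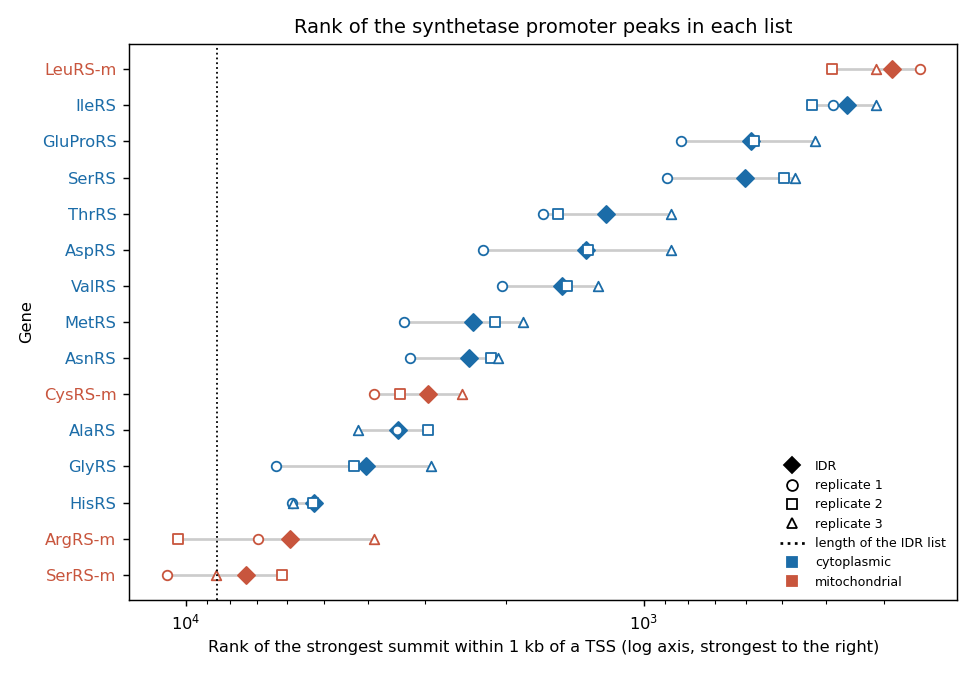
Rank of the strongest summit within 1 kb of a TSS (x axis, log scale, strongest to the right) for the 15 bound synthetase genes (y axis), in the IDR list (filled diamonds) and in replicates 1, 2 and 3 (open circles, squares and triangles). The dotted line marks rank 8549, and only ArgRS-m and SerRS-m have replicate summits to its left.

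For 12 amino acids a cytoplasmic and a mitochondrial gene with matching symbols are among the members, and 9 of these pairs differed in being bound. Of all protein-coding genes 32.1% were bound. How often other pairs of genes differ was not computed, so these counts are a description only. Among these pairs the cytoplasmic gene alone was bound for alanine, asparagine, aspartate, isoleucine, methionine and valine. The mitochondrial gene alone was bound for arginine, cysteine and leucine. Only the serine pair was bound on both sides, with an IDR signal of 1973.8 at SerRS and 329.3 at SerRS-m. Neither gene was bound for tryptophan or tyrosine. The other members have no counterpart with a matching symbol. Among them GlyRS, HisRS, ThrRS and GluProRS were bound, and GlnRS, LysRS, GluRS-m, PheRS-m and ProRS-m were not. By activity GluProRS is the cytoplasmic counterpart of both GluRS-m and ProRS-m, so for glutamate and proline too the cytoplasmic gene alone was bound. In humans the genes for the glycine and lysine enzymes each encode both a cytoplasmic and a mitochondrial protein.

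By enzyme class, 3 of 9 class I (33.3%) and 7 of 8 class II cytoplasmic genes (87.5%) were bound, against 32.1% of all genes, and GluProRS, which has a domain of each class, was bound as well. The class I genes were IleRS, MetRS and ValRS, and LysRS was the class II gene that was not. Among the mitochondrial genes the order was the other way round, with 3 of 9 in class I (33.3%) and 1 of 6 in class II (16.7%). Class I genes of both forms were thus near the share of all genes. Of the 8 genes whose products are in the multisynthetase complex, AspRS, GluProRS, IleRS and MetRS were bound and ArgRS, GlnRS, LeuRS and LysRS were not. Of the 10 other cytoplasmic genes, 7 were bound (70.0%). These groups are small, and no test was made on them.

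The 18 genes that were not bound were mostly far from any reproducible summit. The distance to the nearest IDR summit ran from 1861 bp at PheRS-m to 25006 bp at AsnRS-m, with a median of 7797 bp. Members just inside the limit of 1000 bp were LeuRS-m at 925 bp and HisRS at 838 bp. PheRS-m was the nearest outside it, and its summit had a signal of 579.1. No summit of any of the 5 lists lay within 1000 bp of GlnRS, LeuRS, TrpRS, TyrRS, AlaRS-m, AsnRS-m, GluRS-m, IleRS-m, MetRS-m, PheRS-m, TyrRS-m and ValRS-m. These are 12 of 33 members (36.4%), and 40.2% of all protein-coding genes were in the same position.

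The other 6 unbound genes had summits in some lists only. CysRS had a weak pooled summit (signal 82.7, rank 24273) and summits in replicates 1 and 2, of signals 67.5 and 31.3 at ranks 18375 and 20182. LysRS had summits of 53.2 and 28.7 in replicates 1 and 2, at ranks 22126 and 21733. TrpRS-m had summits of 53.6, 34.2 and 50.2 in replicates 1, 2 and 3, at ranks 21966, 18667 and 14848. All of these replicate summits ranked 14848 or lower. The remaining 3 genes had a strong summit in a single replicate. ProRS-m had a summit of signal 517.0 in replicate 3, rank 959, at 124 bp upstream of its TSS. AspRS-m had one of 210.3 in replicate 3, rank 3431, at 25 bp upstream. ArgRS had one of 150.3 in replicate 2, rank 3485, at 151 bp upstream. Neither the pooled list nor the other replicates held a summit within 1000 bp of the TSS at these 3 genes. For ProRS-m, among the 1000 strongest summits of replicate 3, 6 lay in no pooled peak. For AspRS-m and ArgRS, which rank lower, the counts were 548 of the 8549 strongest summits of replicate 3 (6.41%) and 446 of those of replicate 2 (5.22%).

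Most summits at the bound synthetase genes lay upstream of the TSS, as they did over all bound genes. Of 15, 13 were upstream (86.7%), against 81.1% over all bound genes. Within 250 bp upstream lay 10, which is 66.7%, against 53.6% over all bound genes. The median position was -142 bp, and over all bound genes -148 bp. At IleRS the summit was at -187 bp in the IDR list and at -186, -188 and -191 bp in the replicates. GluProRS had -142 bp, and -142, -151 and -138 bp. ThrRS had -190 bp, and -188, -222 and -190 bp. Among these 3 strong genes the spread was widest at ThrRS. It was wider at some weaker ones. The replicate positions were 817, 920 and 839 bp at HisRS, -460, -393 and -358 bp at SerRS-m, and 12, -58 and -63 bp at ArgRS-m, where replicate 1 fell on the other side of the TSS. SerRS (22 bp) and HisRS (838 bp) had their summit downstream, both in annotated 5′ untranslated sequence of the gene. Each of the 15 genes had a replicate summit within 100 bp of the IDR summit in all 3 replicates. The IDR list favours peaks that recur in these same replicates, so this is no separate evidence.

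**Figure D3:**
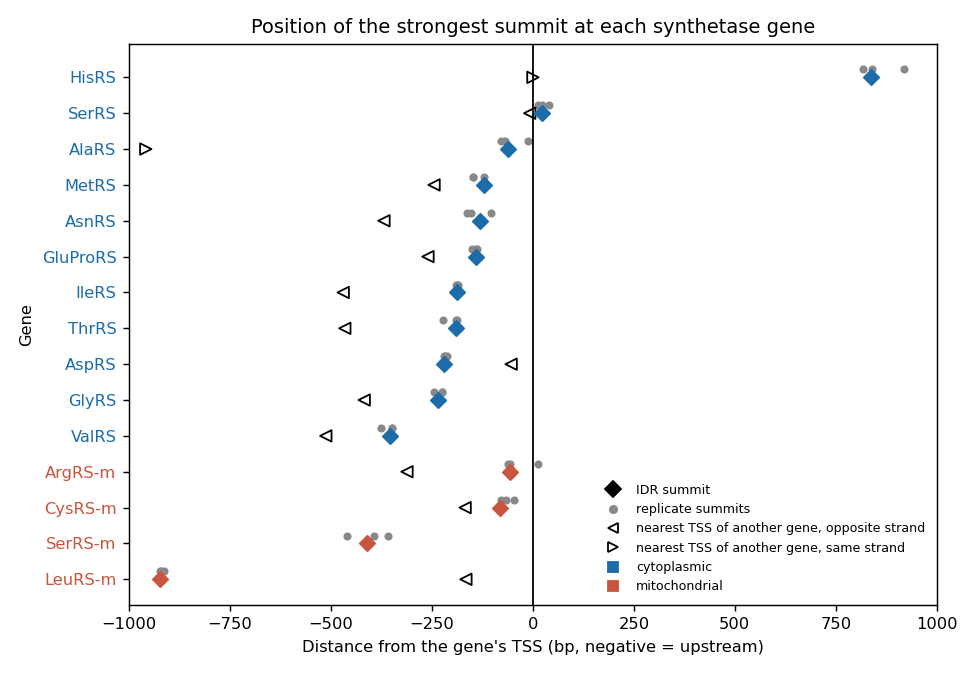
Distance from the TSS (bp, x axis, negative upstream) of the strongest IDR summit (diamonds) and of the strongest summit of each replicate (grey points) at the 15 bound synthetase genes (y axis), with the nearest TSS of another protein-coding gene (open triangles, pointing left where it is on the opposite strand). At 8 of the 11 cytoplasmic genes the summit lies between -62 and -236 bp, and at LeuRS-m it lies at -925 bp, beyond the start of its neighbour.

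Most of these summits also lay near a TSS of another gene. A TSS of a further protein-coding gene lay within 1000 bp of the summit at 14 of the 15 bound members and at all 11 cytoplasmic ones, where the share over all bound genes was 57.1%. SerRS-m was the exception, with a summit in an intron of Nagk. At AlaRS the other TSS, that of CG13392, was on the same strand and 897 bp away. The summit was nearer to the TSS of the other gene at 5 members, equally near at HisRS, where a transcript of Bx has the same annotated start, and nearer to the synthetase TSS at 9. At IleRS it lay 187 bp from its own TSS and 283 bp from that of Hem, which encodes a subunit of the actin-regulating WAVE complex. At GluProRS it lay 142 bp from its own TSS and 118 bp from that of AP-1sigma, a clathrin adaptor gene. At ValRS it lay 354 bp away and 159 bp from Kdm4B, a histone demethylase gene. At MetRS the distances were 122 bp and 123 bp, to CG15084, and at CysRS-m 82 bp and 86 bp, to O-fut1, which encodes the enzyme that adds O-fucose to Notch. A summit between such starts cannot be assigned to either gene from these data.

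The head-to-head arrangement is itself common in the family and does not depend on the peaks. A TSS of another protein-coding gene on the opposite strand lay within 1000 bp upstream of a TSS at 16 of 18 cytoplasmic (88.9%) and 7 of 15 mitochondrial genes (46.7%), against 36.2% of all protein-coding genes. Genes so arranged were bound in 50.1% of cases genome-wide, and genes with no such neighbour in 21.9%. Within the arrangement, 10 of 16 cytoplasmic (62.5%) and 3 of 7 mitochondrial genes (42.9%) were bound. Without it, 1 of 2 cytoplasmic genes (AlaRS) and 1 of 8 mitochondrial genes (SerRS-m) were. The part of the arrangement in the difference between the forms was not tested.

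**Figure D4:**
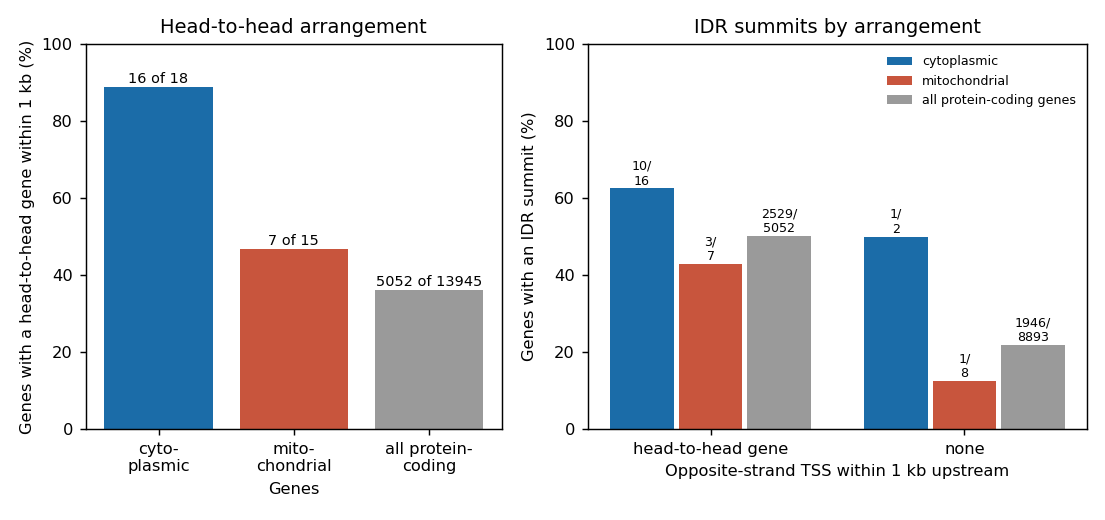
Left, the share of genes (percent, y axis) with a protein-coding TSS on the opposite strand within 1 kb upstream, for cytoplasmic forms, mitochondrial forms and all protein-coding genes. Right, the share with an IDR summit (percent, y axis) among genes with and without such a neighbour, with numbers of genes above the bars; cytoplasmic genes are at 10 of 16 with a neighbour, and mitochondrial genes at 1 of 8 without one.

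The gap between the head-to-head starts varied among the members. All 5 with 400 to 1000 bp between the starts were bound, namely GlyRS, HisRS, IleRS, ThrRS and ValRS. The HisRS summit, however, lay 838 bp downstream of its TSS and not between the starts. Of the 8 with 200 to under 400 bp, 4 were bound (AsnRS, GluProRS, MetRS and ArgRS-m) and ArgRS, LeuRS, TyrRS and ProRS-m were not. Of the 4 with 100 to under 200 bp, CysRS-m and LeuRS-m were bound and GlnRS and TrpRS were not. The LeuRS-m summit lay in an intron of Dhc64C and not between the starts. Of the 6 with less than 100 bp, AspRS and SerRS were bound and LysRS, AlaRS-m, AsnRS-m and TyrRS-m were not. AspRS was bound at an internal start, in an intron, beside a start of Nmda1, and not at its outermost start. Over all genes the bound share was 43.1%, 38.4%, 59.9% and 47.7% from the narrowest to the widest class, so it did not increase steadily with width.

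The 8 motifs, searched on both strands, were chosen with earlier results of these data known. Of them CAGCTG was the most frequent in the promoters of the synthetase genes. At their summits its share, 6.67%, was near the 8.06% of all IDR summits. The promoter window ran from 250 bp upstream to 50 bp downstream of the outermost TSS of each gene, and the summit window covered 100 bp on each side. CAGCTG, one of the E-boxes of the form CANNTG that basic helix-loop-helix proteins recognise, was in the promoter window of 16 of 33 synthetase genes (48.5%), against 17.7% of all protein-coding genes. It was in 9 of 18 cytoplasmic and 7 of 15 mitochondrial promoters, and in 7 of the 15 bound and 9 of the 18 unbound members. A box started within 80 bp of the TSS, a limit chosen after the positions were seen, in 6 of the 9 cytoplasmic genes with the box (66.7%) and in all 7 mitochondrial ones. Among all genes with the box, 63.3% had one there, which is close to the cytoplasmic share. All genes with a head-to-head neighbour had the box in 22.0% of cases. Of the other tRNA charging genes described below, 4 of 11 had it, and of the elongation factor genes, 1 of 9.

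CAGCTG was in 1 of the 15 summit windows at synthetase genes, that of ArgRS-m, and in 8.06% of the windows at all IDR summits. CACGTG and its longer form GGCACGTG were in none of the 15, against 4.07% and 1.30% of all IDR summits, and CACGCG, a site of Hairy-type repressors, was in none, against 7.23%. In the promoter windows CACGTG was found at GlnRS and LeuRS-m and CACGCG at HisRS, LeuRS and TyrRS, which makes 6.06% and 9.09% of the members, against 4.24% and 6.17% of all genes. The DNA replication-related element TATCGATA was in 5 members (15.2%, against 9.37%), AlaRS, ArgRS, IleRS, TrpRS and PheRS-m. GGTCACACT, the element of the promoter factor M1BP, was in 4 members, GlnRS, AsnRS-m, AspRS-m and ProRS-m (12.1%, against 6.05%). These 4 were unbound, as were 18 of the 33 members. The bound share of all genes with this element was not computed. GAGAGAG was in 1, ArgRS-m, against 5.87% of all genes. TGATGCAA, a response element of the stress factor ATF4, was in none, against 0.817%. The absence of these letters from a window says only that they are not in it. The summit windows at synthetase genes had a median of 72.1% A and T, against 65.2% at all IDR summits.

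To show where the box lies, the 120 bases before the TSS are given for 4 members that hold CAGCTG there outside any annotated exon. They are read 5′ to 3′ on the strand of the gene from the dm6 reference and end at the base before the TSS, with the box in capitals. IleRS was bound with its summit upstream of this stretch, and ArgRS, TyrRS and TrpRS-m were not bound.
ArgRS, chrX:15844146-15844265, minus strand: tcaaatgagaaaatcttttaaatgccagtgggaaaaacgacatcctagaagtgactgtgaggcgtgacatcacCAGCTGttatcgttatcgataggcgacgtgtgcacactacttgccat
IleRS, chr3L:22288545-22288664, plus strand: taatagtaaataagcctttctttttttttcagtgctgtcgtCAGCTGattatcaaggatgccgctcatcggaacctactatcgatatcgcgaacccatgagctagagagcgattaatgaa
TyrRS, chr3L:16419303-16419422, minus strand: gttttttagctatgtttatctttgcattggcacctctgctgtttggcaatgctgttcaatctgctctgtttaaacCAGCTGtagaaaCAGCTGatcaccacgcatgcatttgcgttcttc
TrpRS-m, chr3L:17849607-17849726, plus strand: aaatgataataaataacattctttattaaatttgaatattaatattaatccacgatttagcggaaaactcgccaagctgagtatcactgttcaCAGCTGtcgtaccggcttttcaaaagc

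The box starts 47 bp upstream of the TSS at ArgRS and 79 bp upstream at IleRS, each followed by TATCGATA at 34 bp and 42 bp. TyrRS has a pair of boxes, at 45 and 33 bp upstream. TrpRS-m has its box 27 bp upstream.

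Genes that work beside the synthetases were looked at in 2 lists chosen by name, with earlier results of these data known. Of 11 further tRNA charging genes, 4 were bound (36.4%, against 32.1% of all genes). They were alpha-PheRS, a subunit gene of the cytoplasmic phenylalanine enzyme (412.4), Slimp, which encodes a protein related to the mitochondrial serine enzyme (375.8), GatA, which encodes a subunit of an amidotransferase that makes glutaminyl tRNA (783.5), and crc, which encodes the fly ATF4 (516.7). Not bound were beta-PheRS, the gene of the other subunit of the phenylalanine enzyme, the scaffold genes AIMP1, AIMP2 and AIMP3 of the multisynthetase complex, GatB, GatC and Gcn2, which encodes a kinase that senses uncharged tRNA. Both subunits of the phenylalanine enzyme are needed for its activity. The alpha-PheRS gene had a summit in all 3 replicates and the beta-PheRS gene in none. Of the other unbound genes, AIMP2 had weak summits in all 3 replicates (63.5, 42.2 and 60.6), AIMP3 had 132.4 and 66.6 in replicates 1 and 2, and GatC had 252.1 and 20.2 in replicates 1 and 2.

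Of 9 elongation factor genes, which act on the charged tRNAs at the ribosome, 6 were bound (66.7%, against 32.1% of all genes). eEF1gamma had the highest IDR signal of them, 2207.8, and replicate signals of 803.2, 580.8 and 810.1. eEF2 (788.9) and eEF1alpha1 (452.1) were bound, and eEF1alpha2, eEF1beta and eEF1delta were not, though eEF1beta had replicate signals of 262.0, 96.3 and 175.7. The mitochondrial factors mEFTs (505.0), mEFG1 (370.3) and mEFTu1 (289.1) were bound, and a further listed factor, mEFG2, was not matched to a gene by symbol. The reference gives the synonym EF-G2 to mRRF2, which was not counted here. For mEFTs, replicate 1 had no summit within 1000 bp of a TSS, and replicates 2 and 3 had signals of 102.5 and 152.3. The 3 mitochondrial genes matched in this list were thus bound, where 4 of 15 mitochondrial synthetase genes were, and this difference was not tested.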

How the data were processed

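Peaks were mapped on dm6, per the labels, for each of 3 replicates and for their pooled alignments, and 1 control alignment served for all of them, per the deposited provenance records. Those records name neither the aligner nor the peak caller. The replicate and pooled lists hold 30000 peaks each, of which 5 in replicate 1 were off the arms and left out. The 8549 IDR peaks are all in the pooled list. The deposited signal per peak is the authors' value, was taken as a measure of enrichment, and was used within a list only. Summits are the deposited start plus summit offset. The read depth is unknown. TSSs (19607) come from the Ensembl release 115 annotation, and sequences from the RefSeq Release 6 assembly, whose arms are longer than the last peak on each.

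A gene was bound when a summit lay within 1000 bp of a TSS, and its strongest summit was used. Shares carry exact (Clopper-Pearson) 95% intervals from scipy 1.17.1. No statistical test was made, since there is 1 group of samples. Every member is accounted for, and detail was given to the strongest and weakest of each form, to pairs that differ and to unbound genes. The members, lists and motifs were chosen with earlier results of these data known. The assignment of summits to genes was tested on simulated data. Alternatives were other distances, lists, peak sets and TSSs. The symbol mEFG2 was not matched to a gene.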

Additional observations from a re-analysis of the deposited data

How the results depend on the processing

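In all, 10 alternatives were run, and the cytoplasmic share was higher than the mitochondrial share in each. The count of bound members stayed between 12 and 16, within 1.5 times the main count of 15, and that of cytoplasmic members between 10 and 12. Beside 45.5% of members and 32.1% of all genes in the main result, the shares were 48.5% and 47.2% in the pooled list, where the excess over all genes was nearly gone. They were 48.5% and 38.1% within 2000 bp and 36.4% and 20.7% among the 4274 strongest IDR peaks. The mitochondrial count of 4 fell to 2 among the 4274 strongest IDR peaks and to 2 among peaks top-ranked in all 3 replicates. Of all genes, 20.7% and 24.7% were bound in these settings, against 32.1% in the main result. Leaving out replicates 1, 2 or 3, with IDR peaks kept when top-ranked in both others, gave 2 to 3 mitochondrial genes. ArgRS-m and SerRS-m were lost without replicate 1 or 3, and SerRS-m without replicate 2. The share of all genes was then 26.9%, 26.0% and 26.9% without replicates 1, 2 and 3. The difference between the forms, 34.4 points, was 47.8 points among peaks top-ranked in all replicates and 41.1 to 47.8 points when a replicate was left out, and 27.8 points within 2000 bp. The median mitochondrial signal of 557.2, over 4 genes, was 403.1 within 500 bp, where LeuRS-m and HisRS were no longer bound, 1782.8 among the 4274 strongest peaks and among peaks top-ranked in all replicates, and 711.3 to 1782.8 when a replicate was left out. At 1782.8 it was the median of CysRS-m and LeuRS-m only and lay above the cytoplasmic median, which reverses their order. The median position of -142 bp moved to -188.5 bp within 2000 bp, where PheRS-m was added (-1861 bp) and the strongest summit of AsnRS was another one (-1680 bp), and to -164.5 bp among the 4274 strongest peaks. AspRS was lost with 1 TSS per gene, and CysRS was added with the pooled list. The read depth is unknown, and the small number of bound genes limits the precision. No paired analysis was possible because the samples form 1 group, with no second group of samples to pair. The differences between the forms within each replicate are values over genes of the same samples.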
